A study of Mus musculus with 9 samples.

Results

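Foxa2, Foxa1, Shh, Spon1, Lmx1b and Foxj1 were followed through sorted cells of mouse neural tube organoids. These 6 genes were taken from the deposited count table of 54532 genes by matching each Ensembl identifier to its GENCODE symbol, and all 6 were among the 16772 genes with enough counts to test. R1 mouse embryonic stem cells carrying the FoxA2-Venus allele, in which the fluorescent protein Venus reports the Foxa2 product, had been grown clonally in Matrigel in N2B27 medium. At 66 h after Day 2 the organoids were freed from the gel and cell sorting used a GFP filter set. In all, 9 poly(A) RNA-seq libraries were made, in 3 groups of 3 replicates: bright cells from N2B27 with SAG (SAG GFP+), bright cells from N2B27 with retinoic acid (RA GFP+) and dim cells from N2B27 with retinoic acid (RA GFP-). SAG is a small molecule that activates Smoothened, the transducer of hedgehog signals. Its dose, and whether retinoic acid was also present in the SAG medium, are not given in the labels, and the retinoic acid dose is given as nanomolar in one description and micromolar in another. All groups share 1 cell line and 1 reporter allele, and dim cells from SAG medium were not analysed here.

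The floor plate is the strip of cells along the ventral midline of the neural tube. In the mouse embryo, notochord Shh induces it, the winged-helix factor Foxa2 is needed to form it, and it then makes Shh itself. Shh, a secreted ligand, relieves the receptor Ptch1's block on Smoothened, and Gli factors turn on target genes. Foxa1 is a close relative of Foxa2 that binds the same DNA motif. Spon1 (F-spondin) is a matrix protein that floor plate cells secrete. Lmx1b is a LIM homeodomain factor found in midbrain floor plate, in the roof plate and isthmus, and in serotonergic and dorsal spinal neurons. Foxj1 is the master regulator of motile cilia and is expressed in the floor plate. Foxa2, Foxa1 and Shh are also genes of definitive endoderm, and Foxa2, Shh and Foxj1 of the node or notochord.

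On GRCm38, with GENCODE M21 gene models, Foxa2 (ENSMUSG00000037025) lies at chr2:148042877-148046969, Foxa1 (ENSMUSG00000035451) at chr12:57540628-57546916 and Shh (ENSMUSG00000002633) at chr5:28456815-28467256. Spon1 (ENSMUSG00000038156) lies at chr7:113765998-114043370, Lmx1b (ENSMUSG00000038765) at chr2:33560965-33640511 and Foxj1 (ENSMUSG00000034227) at chr11:116330704-116335399. Spon1 is on the plus strand and the other 5 on the minus strand. Shh shares 15.7% of its exon bases with the antisense gene 9530036O11Rik and 12.7% with Gm26894 on the opposite strand. Each of these neighbours had 46 counts over all 9 libraries, against 1824 for Shh. No other member shares exon bases with another gene.

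The RefSeq promoter table (GRCm38.p6; 250 bases before to 50 after each start) matched 3 of the 6 members, Foxa2, Foxa1 and Lmx1b. No entry was found for Shh, Spon1 and Foxj1, so only these 3 are shown. In the data below, Foxa2 and Foxa1 were both high in RA GFP+ cells. Foxa1, Lmx1b and also Shh were lower in SAG GFP+ than in RA GFP+ cells, and Foxa2 was not. All 3 windows are on the minus strand and are written 5′ to 3′ from chr2:148046920-148047219, chr12:57546062-57546361 and chr2:33641049-33641348. Positions are counted from the RefSeq starts, which can differ from the GENCODE gene models above. The Lmx1b window lies wholly outside the Lmx1b interval given above, and the Foxa1 window wholly inside that of Foxa1. Capitals mark matches to a forkhead motif (TGTTTAC or TATTTAC) or a CCAAT box (CCAAT), searched on both strands. A Gli motif (GACCACCCA) and a TATA box (TATAAA) were searched the same way and have no match in these 3 windows.
Foxa2: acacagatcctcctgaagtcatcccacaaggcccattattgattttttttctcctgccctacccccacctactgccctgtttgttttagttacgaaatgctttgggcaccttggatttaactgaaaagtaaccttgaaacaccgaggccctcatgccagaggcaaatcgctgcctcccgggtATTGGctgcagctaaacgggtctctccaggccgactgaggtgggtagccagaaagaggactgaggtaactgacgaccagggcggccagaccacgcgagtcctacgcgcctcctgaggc
Foxa1: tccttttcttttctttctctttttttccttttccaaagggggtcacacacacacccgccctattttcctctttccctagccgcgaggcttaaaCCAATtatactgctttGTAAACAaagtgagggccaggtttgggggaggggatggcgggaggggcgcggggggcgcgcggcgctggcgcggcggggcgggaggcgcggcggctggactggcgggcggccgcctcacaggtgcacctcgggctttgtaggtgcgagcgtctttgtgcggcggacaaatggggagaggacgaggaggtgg
Lmx1b: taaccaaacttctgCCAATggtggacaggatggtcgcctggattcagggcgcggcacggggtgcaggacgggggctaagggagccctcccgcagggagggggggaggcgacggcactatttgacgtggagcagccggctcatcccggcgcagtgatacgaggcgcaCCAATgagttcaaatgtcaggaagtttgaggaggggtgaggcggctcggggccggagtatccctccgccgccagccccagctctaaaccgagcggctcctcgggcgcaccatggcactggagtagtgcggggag
The Foxa1 window held a forkhead match, GTAAACA on the printed strand, at -141 from the start, and a CCAAT box at -157. The Foxa2 window held a CCAAT box on the opposite strand, printed as ATTGG, at -68, and the Lmx1b window held CCAAT at -236 and -84. None of the matches overlap. Of all 32851 promoters in the table, 6.54% held a forkhead match, 37.4% a CCAAT box, 13.6% a TATA box and 0.253% a Gli match. GC content was 54.3% in the Foxa2 window, 62.3% in that of Foxa1 and 65.7% in that of Lmx1b, against a median of 52.7% over all promoters. The table has 2 further Foxa2 starts, whose windows are not printed. The window at chr2:148045415-148045714 held a TATA box match on the opposite strand at -208. The matches describe letters and do not show that a factor binds.

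The libraries held 25281871 to 29763765 counts in genes. Levels are CPM (read counts relative to the library's total after TMM scaling), and a gene is called when edgeR's quasi-likelihood test, Benjamini-Hochberg adjusted over all tested genes, gave a p under 0.05. The log2 fold changes carry standard errors (SE). Labels describe the replicates as biological; p-values measure the spread between these samples. SAG GFP+ replicate 1 stood apart from its group: T (brachyury), the node and primitive streak factor, had 110.3 CPM there, against 7.94 and 9.81 CPM in replicates 2 and 3, and Pou5f1 (Oct4), a pluripotency factor, had 170.8 CPM, against 37.4 and 39.3 CPM. The members' fold changes between media are therefore also given without it. For SAG GFP+ against RA GFP+, so are those of the other listed genes where that changes the call or moves the value by over 1.5 times. The general neural progenitor genes Sox1, Sox2, Sox3, Nes and Pax6 were detected in every group, and their summed level was 949.6 to 1029 CPM in SAG GFP+, 332.4 to 507.8 CPM in RA GFP+ and 957.5 to 1042 CPM in RA GFP- libraries.

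Foxa2 had 326.4, 212.4 and 204.6 CPM in SAG GFP+ cells, 184.4, 156.8 and 132.8 CPM in RA GFP+ cells and 2.47, 1.33 and 2.51 CPM in RA GFP- cells. Bright and dim libraries were far apart. Foxa2 is the gene the sort read, so this difference checks the labels and is no finding. The level was 74.7-fold higher in RA GFP+ than in RA GFP- cells (log2 6.22, SE 0.29, adjusted p = 8.39e-07). Among bright cells, each SAG library lay above each RA library. The mean was 247.8 ± 68.2 CPM in SAG GFP+ and 158.0 ± 25.8 CPM in RA GFP+ (SD, n = 3 each), a log2 difference of 0.65 (SE 0.22, adjusted p = 0.0497). That call depended on single libraries. It was lost without SAG GFP+ replicate 1 (log2 0.42, adjusted p = 0.132), without SAG GFP+ replicate 2, without any 1 of the RA GFP+ replicates, without RA GFP- replicate 3 and when only library totals were used for scaling; adjusted p spanned 0.00085 to 0.147 over 17 alternatives.

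**Figure D1:**
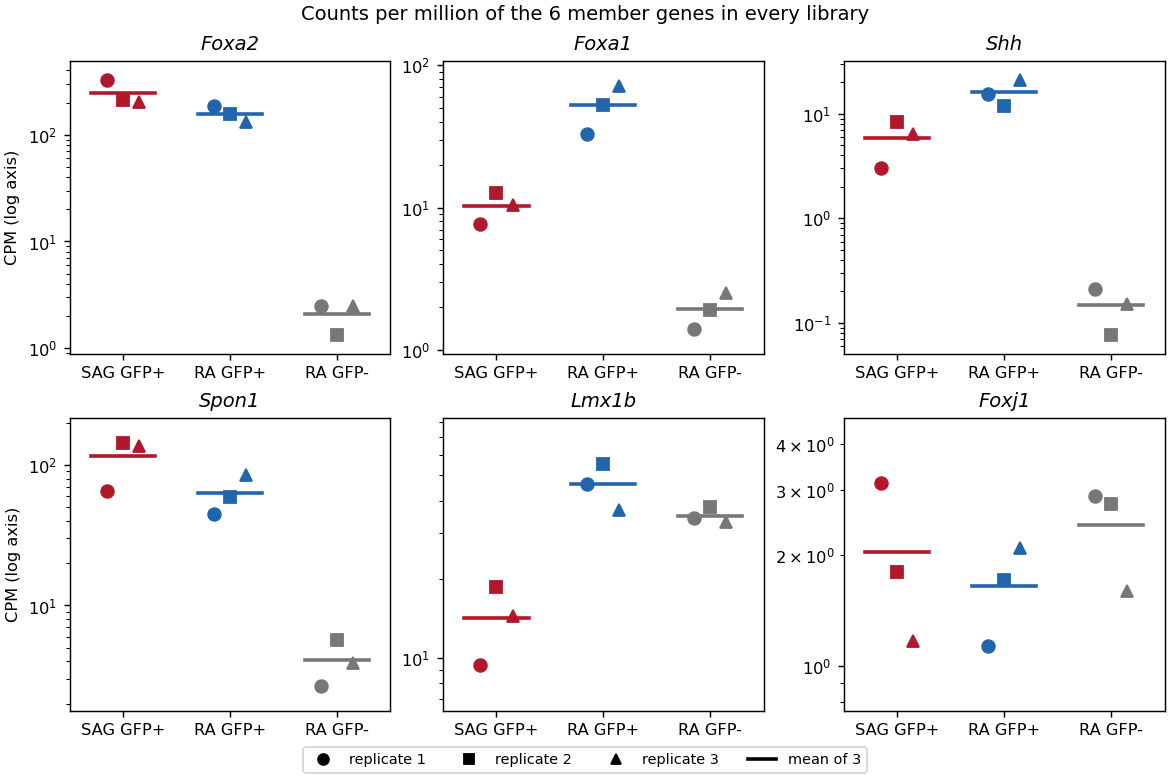
CPM (log axis, own range in each panel) of the 6 genes in the 9 libraries, with SAG GFP+ at the left, RA GFP+ in the middle and RA GFP- at the right; symbols give the replicate number and bars the mean of 3. Foxa2, Foxa1, Shh and Spon1 lie far lower in RA GFP- cells, Foxa1, Shh and Lmx1b lie lower in SAG GFP+ than in RA GFP+ cells, and Foxj1 overlaps throughout.

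Within retinoic acid medium, the floor plate genes Foxa1, Shh and Spon1 were all higher in bright than in dim cells, while Lmx1b and Foxj1 did not pass the test. With Foxa2, that is 4 members called higher and 0 lower, where 8.49% of all tested genes were called higher, 8.43% lower and 16.9% in either direction; the sort itself used Foxa2. The median log2 fold change of all tested genes was -0.02. In these bulk samples, fewer cells of a type and less RNA per cell cannot be told apart.

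Foxa1, the paralog, had 32.8, 52.7 and 71.5 CPM in RA GFP+ cells, against 1.41, 1.91 and 2.51 CPM in RA GFP- cells. The lowest bright library was far above the highest dim library, although bright libraries differed more than 2-fold among themselves. The difference was 26.9-fold (log2 4.75, SE 0.34, adjusted p = 1.08e-05). Shh, the ligand, had 15.4, 11.8 and 21.2 CPM in RA GFP+ cells, against 0.212, 0.076 and 0.152 CPM in RA GFP- cells. Those dim values rest on 6, 2 and 4 reads, so the low end is set by counting. Shh was 105.9-fold higher in RA GFP+ cells (log2 6.73, SE 0.52, adjusted p = 1.44e-05). Spon1 had 44.8, 59.4 and 85.2 CPM in RA GFP+ cells, against 2.68, 5.72 and 3.92 CPM in RA GFP- cells. The groups did not overlap and the difference was 15.4-fold (log2 3.94, SE 0.38, adjusted p = 5.45e-05).

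Lmx1b differed from these. It had 46.4, 55.3 and 36.9 CPM in RA GFP+ cells, against 34.3, 38.0 and 33.0 CPM in RA GFP- cells, and the lowest bright library lay within the range of the dim ones. The log2 difference was 0.40 (SE 0.23, adjusted p = 0.275). Same-numbered RA libraries deviated together, and in the paired fit on the 6 RA libraries the difference of 0.38 was called (adjusted p = 0.0254), with Lmx1b higher in RA GFP+ cells in 3 of 3 pairs. It was not called with the replicate number as a block over all 9 libraries (log2 0.38, adjusted p = 0.153). Foxj1 had 1.14, 1.71 and 2.09 CPM in RA GFP+ cells, against 2.90, 2.74 and 1.599 CPM in RA GFP- cells. The groups overlapped, with a log2 difference of -0.55 (SE 0.43, adjusted p = 0.440) and RA GFP+ higher in 1 of 3 pairs.

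Between bright cells of the 2 media, Foxa1, Shh and Lmx1b were lower in SAG GFP+ cells while Foxa2 was not. Of the 6 members, 1 was called higher (Foxa2, the call above that depended on single libraries) and 3 lower, where 9.78% of all tested genes were called higher, 14.8% lower and 24.5% in either direction. All tested genes had a median log2 value of -0.02 here too.

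Foxa1 had 7.62, 12.7 and 10.4 CPM in SAG GFP+ cells, each below the 32.8 to 71.5 CPM of RA GFP+ cells. It was 5.11-fold lower (log2 -2.35, SE 0.30, adjusted p = 0.000215), and the log2 difference was -2.16 (adjusted p = 0.000691) without SAG GFP+ replicate 1. Shh had 3.01, 8.28 and 6.35 CPM in SAG GFP+ cells, each below the 11.8 to 21.2 CPM of RA GFP+ cells. It was 2.74-fold lower (log2 -1.46, SE 0.36, adjusted p = 0.0128), and without SAG GFP+ replicate 1 the log2 difference was -1.12 (adjusted p = 0.0197). The ligand's RNA was thus lower in bright cells from the medium with the Smoothened agonist than in bright cells from retinoic acid medium. Lmx1b had 9.45, 18.7 and 14.5 CPM in SAG GFP+ cells, each below the 36.9 to 55.3 CPM of RA GFP+ cells. It was 3.25-fold lower (log2 -1.70, SE 0.23, adjusted p = 0.000344), and without SAG GFP+ replicate 1 the log2 difference was -1.46 (adjusted p = 0.00039).

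Spon1 went the other way in its means. It had 64.7, 143.8 and 136.7 CPM in SAG GFP+ cells, against 44.8, 59.4 and 85.2 CPM in RA GFP+ cells. SAG GFP+ replicate 1 fell inside the RA range while the other two lay above it. The log2 difference of 0.87 (SE 0.33) missed the threshold (adjusted p = 0.0747), but was 1.17 and called without SAG GFP+ replicate 1 (adjusted p = 0.00948) and 1.14 and called without RA GFP+ replicate 3 (adjusted p = 0.0378); 6 of 17 alternatives called it, DESeq2 among them, and adjusted p spanned 0.000199 to 0.236. Foxj1 had 3.14, 1.80 and 1.17 CPM in SAG GFP+ cells, against 1.14, 1.71 and 2.09 CPM in RA GFP+ cells. The groups overlapped (log2 0.30, SE 0.43, adjusted p = 0.652), and the sign turned without SAG GFP+ replicate 1 (log2 -0.13).

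Against dim RA cells, SAG GFP+ cells were higher in Foxa2 (log2 6.87), Foxa1 (log2 2.40, SE 0.32, adjusted p = 0.00026), Shh (log2 5.27, SE 0.51, adjusted p = 2.47e-05) and Spon1 (log2 4.81, SE 0.39, adjusted p = 7.73e-06). Lmx1b was lower, with a log2 difference of -1.30 (SE 0.23, adjusted p = 0.00159), and Foxj1 did not pass the test (log2 -0.25, adjusted p = 0.697). Without SAG GFP+ replicate 1 these log2 values were 6.65, 2.60, 5.60, 5.12, -1.06 and -0.68, with the same calls. That makes 4 members higher and 1 lower, where 12.0% of all tested genes were called higher, 16.5% lower and 28.5% in either direction. Foxa2, among those higher, is the gene the sort read. Here the medium and the sort both differ and cannot be told apart, and this comparison shares libraries with the other two.

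**Figure D2:**
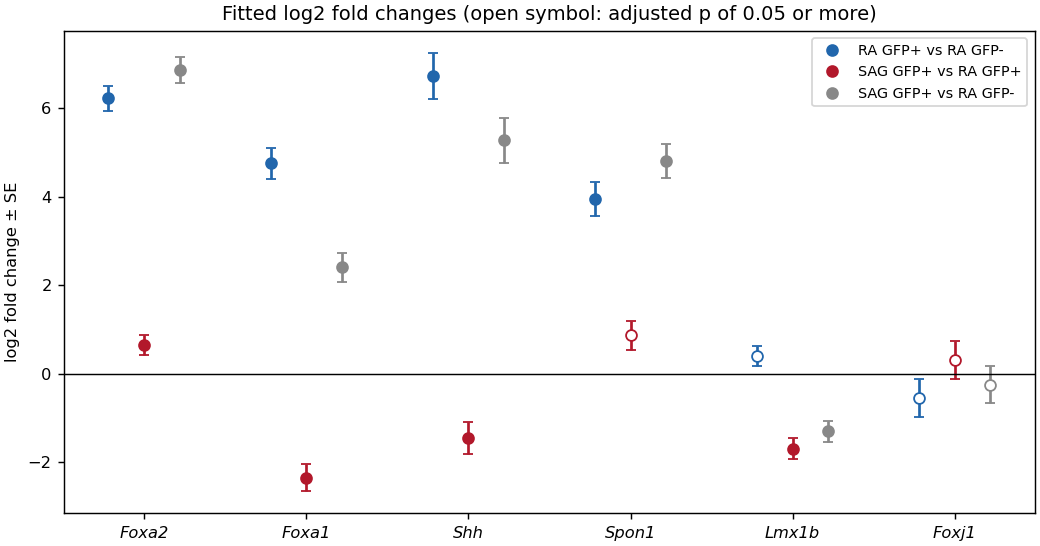
Fitted log2 fold change ± SE (vertical axis) of each gene in the 3 comparisons, with RA GFP+ against RA GFP- in blue, SAG GFP+ against RA GFP+ in red and SAG GFP+ against RA GFP- in grey; open symbols mark adjusted p of 0.05 or more. Foxa1 reaches 4.75 in the blue comparison and -2.35 in the red one, and Lmx1b is open at 0.40 in blue but -1.70 in red.

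Per kilobase of exon, taken over all annotated transcripts, the genes can be ranked within a group. Which transcripts were made was not measured and could move this order and the percents of Foxa2 below. In SAG GFP+ cells Foxa2 averaged 104.5 CPM per kb and Spon1 11.1, both apart from the rest, followed by Foxa1 at 3.08, Lmx1b at 2.91, Shh at 2.07 and Foxj1 at 0.776, where each neighbouring pair overlapped. In RA GFP+ cells Foxa2 averaged 66.7 CPM per kb. Foxa1 followed at 15.7, Lmx1b at 9.46, Spon1 at 6.08 and Shh at 5.68, each overlapping its neighbour, and Foxj1 lay below at 0.628. The order in RA GFP- cells was led by Lmx1b at 7.19 CPM per kb. Foxj1 at 0.920, Foxa2 at 0.889, Foxa1 at 0.584 and Spon1 at 0.396 overlapped their neighbours, and Shh was last at 0.052. Thus Foxa1 was second among the 6 in bright RA cells, and Spon1 was second in bright SAG cells.

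Each gene was also set against Foxa2 in the same library, so these ratios include the difference of Foxa2 between media. Foxa1 per exon base was 1.67%, 4.25% and 3.64% of Foxa2 in SAG GFP+ libraries, against 12.7%, 23.9% and 38.3% in RA GFP+ libraries. Shh was 0.774%, 3.25% and 2.59% of Foxa2 in SAG GFP+ libraries, against 6.98%, 6.27% and 13.3% in RA GFP+ libraries. Lmx1b was 1.41%, 4.29% and 3.44% in SAG GFP+ libraries, against 12.2%, 17.1% and 13.5% in RA GFP+ libraries. For these 3 genes each SAG value lay below each RA value. The mean log2 ratios differed by -2.94 for Foxa1, -2.16 for Shh and -2.36 for Lmx1b, each with an exact two-sided permutation p of 0.1, the smallest that 3 against 3 allows (0.167 after Benjamini-Hochberg adjustment over 5 ratios). Without SAG GFP+ replicate 1 the differences were -2.53, -1.53 and -1.88. Spon1 was 4.53%, 15.5% and 15.3% of Foxa2 in SAG GFP+ libraries, against 5.55%, 8.64% and 14.7% in RA GFP+ libraries, and overlapped (log2 0.20, exact permutation p = 0.8; 0.79 without SAG GFP+ replicate 1). Foxj1 also overlapped (log2 -0.40, exact permutation p = 0.4). In each medium, replicate 1 had the highest Foxa2 of the bright libraries together with the lowest Foxa1 and Spon1.

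**Figure D3:**
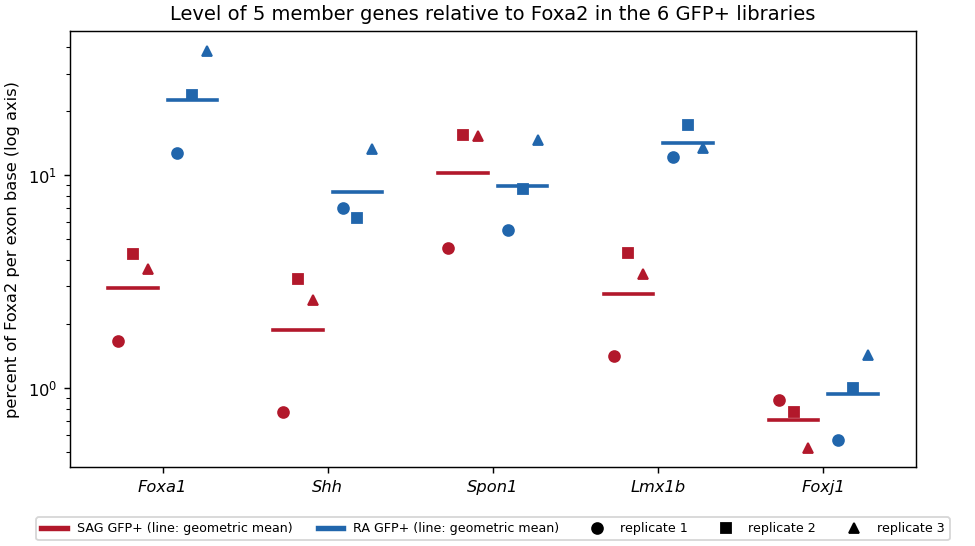
Level of 5 genes as a percent of Foxa2 per exon base (log axis) in the SAG GFP+ (red, left) and RA GFP+ (blue, right) libraries; symbols give the replicate number and lines the geometric mean. Foxa1, Shh and Lmx1b are separated by medium, and SAG GFP+ replicate 1 is the lowest point for these 3 genes and for Spon1.

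A list of 8 other floor plate genes was compared with the members. This list, like those below, was chosen with earlier results of these data known. Its counts of calls, and those of the lists below, stand beside the shares of all tested genes called. In either direction these were 16.9% for RA GFP+ against RA GFP- and 24.5% for SAG GFP+ against RA GFP+. In RA medium, 5 of the 6 tested genes of this list were called higher in bright cells and 0 lower, with a median log2 fold change of 1.75. Sulf1, a heparan sulfate sulfatase that tunes hedgehog signalling, averaged 342.5 ± 40.4 CPM in RA GFP+ and 59.7 ± 15.0 CPM in RA GFP- cells (SD, n = 3 each; log2 2.52, SE 0.19, adjusted p = 1.31e-05). Slit3, an axon repellent, averaged 59.9 ± 11.3 CPM in RA GFP+ and 12.5 ± 1.40 CPM in RA GFP- cells (log2 2.26, SE 0.24, adjusted p = 0.000116). Ntn1 (netrin-1, the floor plate's axon attractant; log2 1.55), Slit1 (1.95) and Sema3b, a semaphorin (0.92), were the other genes called. The Slit1 call was lost without RA GFP- replicate 1 or 2 (adjusted p = 0.0533 and 0.0510). Slit2 had a log2 difference of 0.75 (adjusted p = 0.113), and the paired fit called it (adjusted p = 0.000299). Ferd3l and Corin had too few counts to test.

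Between media these genes split. Slit3 was higher in SAG GFP+ cells, at 127.7 ± 41.8 CPM against 59.9 ± 11.3 CPM in RA GFP+ cells (SD, n = 3 each; log2 1.09, SE 0.23, adjusted p = 0.00515). Sulf1 averaged 541.9 ± 82.3 CPM in SAG GFP+ cells, against 342.5 ± 40.4 CPM in RA GFP+ cells (log2 0.66, adjusted p = 0.0194), and this call was lost on leaving out RA GFP+ replicate 2 or 3 or SAG GFP+ replicate 2 or 3 (adjusted p of 0.0623 to 0.0765). Sema3b was lower, as Shh was. It averaged 5.33 ± 0.51 CPM in SAG GFP+ and 12.2 ± 0.93 CPM in RA GFP+ cells (log2 -1.20, adjusted p = 0.00113). Ntn1 (log2 -0.20), Slit1 (0.71) and Slit2 (-0.20) did not pass the test, and the list's median was 0.23.

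**Figure D4:**
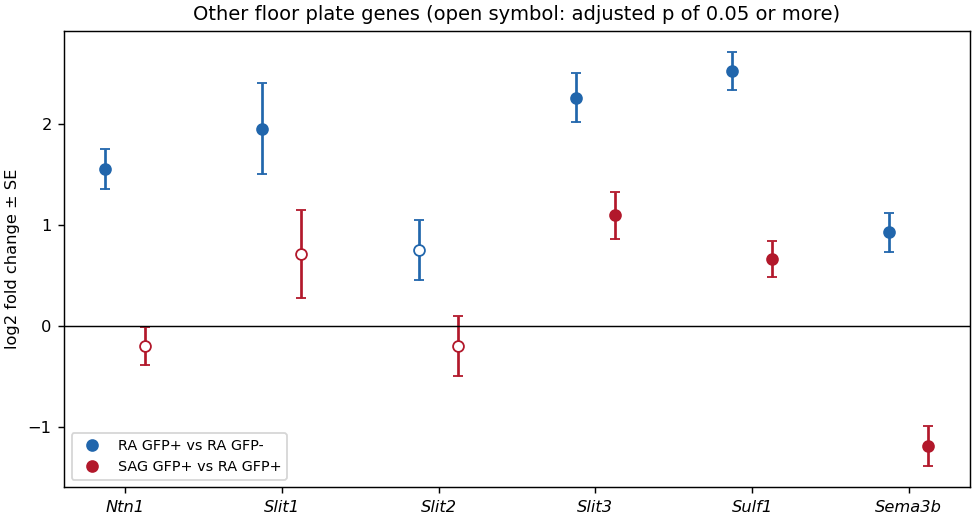
Fitted log2 fold change ± SE (vertical axis) of the 6 tested floor plate genes outside the 6 members, for RA GFP+ against RA GFP- (blue) and SAG GFP+ against RA GFP+ (red); open symbols mark adjusted p of 0.05 or more. The blue points are all above 0 and the red ones lie on both sides, from -1.20 for Sema3b to 1.09 for Slit3.

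Targets of the pathway were set beside the ligand. The hedgehog-induced genes Ptch1 (receptor), Gli1 (transcription factor) and Hhip (decoy receptor) were called higher in RA GFP+ than in RA GFP- cells, 3 of 3 tested. Ptch1 averaged 1892 ± 136 CPM in SAG GFP+, 1293 ± 247 CPM in RA GFP+ and 310.4 ± 32.3 CPM in RA GFP- cells (SD, n = 3 each). It was higher by 2.06 on the log2 scale in RA GFP+ over RA GFP- cells (SE 0.15, adjusted p = 1.23e-05). In SAG GFP+ over RA GFP+ cells the log2 difference was 0.55 (SE 0.15, adjusted p = 0.0187), and this call was lost on leaving out RA GFP+ replicate 2 or 3 or SAG GFP+ replicate 3 (highest adjusted p 0.0642). Gli1 averaged 150.9 ± 35.3 CPM in SAG GFP+ and 145.2 ± 28.8 CPM in RA GFP+ cells (log2 0.06, adjusted p = 0.859). So Shh was 2.74-fold lower in SAG GFP+ cells while 1 of the 3 hedgehog-induced genes was called higher and 0 lower.

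Of 5 genes of ventral progenitors near the floor plate, 3 were called higher in SAG GFP+ than in RA GFP+ cells. Nkx6-1, a homeodomain factor of ventral progenitors, averaged 385.5 ± 70.5 CPM in SAG GFP+, 62.0 ± 3.24 CPM in RA GFP+ and 4.24 ± 0.436 CPM in RA GFP- cells. Its log2 difference was 2.64 (SE 0.15, adjusted p = 1.04e-06) for SAG GFP+ over RA GFP+ and 3.87 (SE 0.17, adjusted p = 7.46e-07) for RA GFP+ over RA GFP-. Nkx2-2, which marks the p3 progenitors that border the floor plate, averaged 42.2 ± 8.34 CPM in SAG GFP+ and 2.44 ± 0.806 CPM in RA GFP+ cells (log2 4.12, SE 0.29, adjusted p = 3.78e-06). Nkx6-2 was also called higher (log2 5.06), making 3 of 5 called, with Nkx2-9 (log2 0.70) and Olig2 (log2 1.46) not called. The summed level of the 5 genes was 764.7 to 889.1 CPM in SAG GFP+, 156.9 to 256.9 CPM in RA GFP+ and 11.2 to 17.8 CPM in RA GFP- libraries. Which cells made these RNAs, and the part of such progenitors in the member differences, were not tested.

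Relatives of the members were measured as well. Of 7 listed, 6 were tested. Ihh, the hedgehog ligand of gut endoderm and cartilage, averaged 1.51 ± 1.09 CPM in RA GFP+ and 0.127 ± 0.116 CPM in RA GFP- cells (log2 3.54, adjusted p = 0.0133), and this call was lost on leaving out RA GFP+ replicate 3 (log2 2.77, adjusted p = 0.0679). It was the single relative called there; the log2 value was 4.26 without RA GFP- replicate 2. In SAG GFP+ cells it averaged 0.106 ± 0.063 CPM (log2 -3.79 against RA GFP+, adjusted p = 0.00825; -3.01 without RA GFP+ replicate 3). Foxa3, the third Foxa paralog and an endoderm gene, averaged 0.404 ± 0.115 CPM in SAG GFP+ and 1.28 ± 0.596 CPM in RA GFP+ cells (log2 -1.66, adjusted p = 0.0282), a call lost in 4 of 9 leave-one-out fits: without RA GFP+ replicate 1 or 2 and without SAG GFP+ replicate 2 or 3 (highest adjusted p 0.165). Lmx1a, the Lmx1b paralog, was at 0.105 ± 0.062 CPM in SAG GFP+, 0.424 ± 0.158 CPM in RA GFP+ and 1.03 ± 0.764 CPM in RA GFP- cells and was called neither in RA GFP+ against RA GFP- nor in SAG GFP+ against RA GFP+ cells (adjusted p = 0.205 and 0.0828). It was called lower in SAG GFP+ than in RA GFP- cells (log2 -3.25, adjusted p = 0.00705). Foxj2, Foxj3 and Spon2 were not called.

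Foxj1 was set beside 24 genes of motile cilia, of which 18 were tested. In RA medium 1 was higher and 8 were lower in bright cells (median log2 fold change -0.96; the paired fit called 1 higher and 9 lower), and 5 in all were called without RA GFP+ replicate 2. Rfx2, a transcription factor of ciliogenesis, averaged 15.4 ± 5.25 CPM in RA GFP+ and 36.7 ± 8.72 CPM in RA GFP- cells (log2 -1.25, SE 0.24, adjusted p = 0.00476). The radial spoke gene Rsph4a averaged 0.155 ± 0.106 CPM in RA GFP+ and 1.64 ± 1.01 CPM in RA GFP- cells (log2 -3.36, adjusted p = 0.00722). In SAG GFP+ against RA GFP+ cells 3 were higher and 1 lower (median 0.61), where 24.5% of all tested genes were called in either direction. Without SAG GFP+ replicate 1, Ccdc39 (log2 0.95, adjusted p = 0.0409) and Cfap126 (log2 1.33, adjusted p = 0.0424) were also called higher. Gmnc, a coiled-coil regulator that acts upstream of Foxj1 in multiciliated cells, had 41, 22 and 20 counts in SAG GFP+ libraries and 0 counts in all 3 RA GFP+ libraries, at least 30.2-fold higher against a floor of 3 counts over the group (adjusted p = 0.00528). Tppp3, a tubulin-binding protein, averaged 19.5 ± 4.11 CPM in SAG GFP+ and 9.09 ± 2.44 CPM in RA GFP+ cells (log2 1.10, SE 0.24, adjusted p = 0.00575). Rfx3, another ciliogenic factor, was higher (log2 0.87). The dynein gene Dnah11 was lower (log2 -1.67, adjusted p = 0.0148), and this call was lost on leaving out RA GFP+ replicate 2 or SAG GFP+ replicate 2 or 3. Foxj1 itself had at most 3.14 CPM in any library.

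Lmx1b was set beside genes that share its other settings. Of 9 midbrain floor plate and dopaminergic genes, 7 were tested. Msx1, a factor of the midbrain floor plate and the roof plate, averaged 1.35 ± 1.45 CPM in SAG GFP+, 57.7 ± 19.9 CPM in RA GFP+ and 14.8 ± 5.47 CPM in RA GFP- cells. It was lower in SAG GFP+ than in RA GFP+ cells by a log2 value of -5.43 (SE 0.62, adjusted p = 9.50e-05; -6.78 without SAG GFP+ replicate 1). Its log2 difference of 1.96 between RA GFP+ and RA GFP- cells (adjusted p = 0.0198) was the single call there and was lost in DESeq2 and without RA GFP- replicate 2 or 3 or RA GFP+ replicate 1 (highest adjusted p 0.0799); the paired fit called 1 of these genes higher and 3 lower. En1, a midbrain and hindbrain factor, was higher in SAG GFP+ cells, at 7.95 ± 2.62 CPM against 0.816 ± 0.118 CPM in RA GFP+ cells (log2 3.27, SE 0.44, adjusted p = 0.000296), and so was Nr4a2 (log2 1.38). Otx2 (log2 -0.54), Wnt1 (-1.63), Wnt5a (-0.59) and Lmx1a (-1.98) went the other way and were not called. Wnt5a was called lower without SAG GFP+ replicate 1 (log2 -1.17, adjusted p = 0.0236), and Wnt1 without SAG GFP+ replicate 3 (adjusted p = 0.0499). The list's median log2 fold change was -0.59 for SAG GFP+ against RA GFP+ and -0.83 for RA GFP+ against RA GFP-. Pitx3 and Th, which mark dopaminergic neurons, had too few counts to test.

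Of 5 serotonergic genes, the neuron-defining Fev, Tph2 and Slc6a4 had too few counts to test, leaving 2. Gata3 averaged 2.10 ± 0.728 CPM in SAG GFP+, 11.3 ± 4.14 CPM in RA GFP+ and 3.27 ± 0.21 CPM in RA GFP- cells, higher in RA GFP+ than in RA GFP- (log2 1.79, adjusted p = 0.00338) and lower in SAG GFP+ than in RA GFP+ (log2 -2.43, adjusted p = 0.000396). Gata2 was not called, and the paired fit called it lower in RA GFP+ cells. Lbx1, a factor of dorsal spinal neurons, had 0 counts in every SAG GFP+ library and averaged 0.915 ± 0.736 CPM in RA GFP+ and 9.13 ± 2.07 CPM in RA GFP- cells. It was at least 23.5-fold lower in SAG GFP+ than in RA GFP+ cells, against the floor of 3 counts over the group (adjusted p = 0.00177), and was lower in RA GFP+ than in RA GFP- cells (log2 -3.31, adjusted p = 0.00286; -4.19 without RA GFP+ replicate 3). Tlx3, its partner in those neurons, also had 0 counts in SAG GFP+ libraries (adjusted p = 0.0476 against RA GFP+), a call lost in 8 of 9 leave-one-out fits (highest adjusted p 0.158), that is in all but the one without RA GFP+ replicate 3. In RA medium Tlx3 was not called (adjusted p = 0.0740), and the paired fit called it lower (adjusted p = 0.0148). Lmx1b was thus measured at 33.0 to 38.0 CPM in dim RA libraries, where the 3 dorsal neuron genes summed to 8.47 to 13.0 CPM.

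Other cells that make these genes were checked in the same libraries. Of 10 endoderm genes, 7 were tested (Foxa3 is in this list as well as among the relatives). In RA medium 4 were higher and 0 lower in bright cells (median log2 fold change 1.23; the paired fit called 4 higher and 2 lower). In SAG GFP+ against RA GFP+ cells 1 was higher (Cxcr4) and 4 lower (median -1.66), and 3 in all were called without RA GFP+ replicate 1 or 2. Sox17, a defining endoderm factor, had 0.896, 0.337 and 0.039 CPM in SAG GFP+ libraries and 34.7, 49.0 and 55.3 CPM in RA GFP+ libraries, and averaged 1.33 ± 0.353 CPM in RA GFP- cells. It was higher in RA GFP+ than in RA GFP- cells (log2 5.12, SE 0.48, adjusted p = 4.73e-05) and lower in SAG GFP+ than in RA GFP+ cells (log2 -6.77, SE 0.55, adjusted p = 1.10e-05; -7.87 without SAG GFP+ replicate 1). Gata6, another endoderm factor, averaged 1.24 ± 1.17 CPM in SAG GFP+, 6.33 ± 1.96 CPM in RA GFP+ and 0.639 ± 0.151 CPM in RA GFP- cells (log2 -2.36, adjusted p = 0.0114 for SAG GFP+ over RA GFP+, and -3.43 without SAG GFP+ replicate 1; log2 3.30, adjusted p = 0.00336 for RA GFP+ over RA GFP-). Afp, a plasma protein of yolk sac and fetal liver, had 0 counts in SAG GFP+ and RA GFP- libraries and averaged 1.08 ± 0.656 CPM in RA GFP+ cells. That is at least 28.1-fold lower in SAG GFP+ than in RA GFP+ cells and at least 29.5-fold higher in RA GFP+ than in RA GFP- cells, against the floor of 3 counts over the group (adjusted p = 0.00337 and 0.00453). Cer1, Ttr and Apoa1 had too few counts to test. The summed level of the endoderm list was 37.8 to 79.96 CPM in SAG GFP+, 63.6 to 103.1 CPM in RA GFP+ and 38.4 to 43.4 CPM in RA GFP- libraries. Most of the SAG GFP+ and RA GFP- sums was Cxcr4, a chemokine receptor of endoderm and of other cells, which had 29.3, 60.8 and 73.5 CPM in SAG GFP+, 14.5, 19.9 and 31.95 CPM in RA GFP+ and 31.2, 37.3 and 32.9 CPM in RA GFP- libraries. Its call in SAG GFP+ over RA GFP+ cells (log2 1.30, adjusted p = 0.0135) was lost without RA GFP+ replicate 1 or 2 or SAG GFP+ replicate 3 (highest adjusted p 0.0584). The other 9 genes summed to 3.71 to 8.51 CPM in SAG GFP+, 49.1 to 71.2 CPM in RA GFP+ and 5.98 to 7.27 CPM in RA GFP- libraries. Hnf4a, another endoderm gene, averaged 0.294 ± 0.153 CPM in RA GFP+ and 0.825 ± 0.285 CPM in RA GFP- cells (log2 -1.49, adjusted p = 0.254). Foxa1 and Shh move in the same directions as Sox17 in both comparisons, and the part of endoderm in those values was not tested.

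Of 8 node and notochord genes, 7 were tested; 4 were higher and 0 lower in RA GFP+ against RA GFP- cells (median log2 1.76; the paired fit called 5 higher and 1 lower, adding T at log2 2.20, adjusted p = 0.00128, and Nodal, a signal of the node, at log2 -1.17, adjusted p = 8.54e-05), and 1 was higher and 4 lower in SAG GFP+ against RA GFP+ cells (median -0.91). Pkd1l1, a polycystin of the node, averaged 8.16 ± 4.29 CPM in RA GFP+ and 0.203 ± 0.289 CPM in RA GFP- cells (log2 5.32, adjusted p = 0.00065; 4.73 and 7.63 without RA GFP- replicate 1 and 2). Bicc1, an RNA-binding protein of node cilia, averaged 30.8 ± 3.18 CPM in SAG GFP+, 58.0 ± 16.6 CPM in RA GFP+ and 22.0 ± 3.61 CPM in RA GFP- cells, called in both comparisons. Nog, a BMP antagonist, averaged 1.49 ± 0.692 CPM in SAG GFP+ and 6.10 ± 2.17 CPM in RA GFP+ cells (log2 -2.03, adjusted p = 0.00714). Nodal was also called lower in SAG GFP+ than in RA GFP+ cells (log2 -2.18, adjusted p = 0.0271, and -3.67 without SAG GFP+ replicate 1). That call was lost without RA GFP+ replicate 1 or SAG GFP+ replicate 2 or 3 (highest adjusted p 0.0962) and in the fit on the 2 groups alone. T, the notochord's defining factor, was called higher in SAG GFP+ cells (log2 3.43, adjusted p = 0.0239), and not without SAG GFP+ replicate 1 (1.18, adjusted p = 0.177) or without RA GFP+ replicate 2 or 3. The count of calls was 3 without any 1 of RA GFP+ replicates 1 and 2 and SAG GFP+ replicates 2 and 3. Noto had 56, 0 and 8 counts in SAG GFP+ libraries and 0 counts in RA GFP+ libraries. The summed level was 173.3, 53.6 and 57.4 CPM in the SAG GFP+ libraries, 91.5 to 135.2 CPM in RA GFP+ and 58.9 to 79.4 CPM in RA GFP- libraries; its part in the Foxa2 value of SAG GFP+ replicate 1 was not tested.

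The dim cells differed from the bright ones in more than floor plate genes. All 5 pan-neural genes were called lower in RA GFP+ than in RA GFP- cells. Sox1 averaged 203.1 ± 20.8 CPM in SAG GFP+, 33.4 ± 5.74 CPM in RA GFP+ and 69.7 ± 8.03 CPM in RA GFP- cells (log2 2.60, adjusted p = 1.97e-06 for SAG GFP+ over RA GFP+; log2 -1.06, adjusted p = 0.000694 for RA GFP+ over RA GFP-). Nes, the neural progenitor filament nestin, averaged 320.9 ± 48.1 CPM in SAG GFP+, 106.5 ± 32.8 CPM in RA GFP+ and 288.5 ± 72.5 CPM in RA GFP- cells, called in both comparisons. Between media 4 of the 5 were higher and Pax6 lower in SAG GFP+ cells, with 3 called without RA GFP+ replicate 2 or SAG GFP+ replicate 2. The Sox2 call (log2 0.47, adjusted p = 0.0246) was lost without RA GFP+ replicate 1 or 2 or SAG GFP+ replicate 2 (highest adjusted p 0.116). The Pax6 groups overlapped, and its call (log2 -1.33, adjusted p = 0.0481) was lost in 12 of 17 alternatives, DESeq2, both replicate blocks and 7 of 9 leave-one-out fits among them (highest adjusted p 0.176). It was kept without RA GFP+ replicate 1 and without SAG GFP+ replicate 1. Of 6 pluripotency genes, 5 were lower and 0 higher in RA GFP+ against RA GFP- cells. In SAG GFP+ against RA GFP+ cells, 3 were higher and 3 lower. Pou5f1 was among those higher there (log2 4.004, adjusted p = 0.000442). Its call was kept without SAG GFP+ replicate 1, at a smaller difference (log2 2.921, adjusted p = 4.23e-05). The higher call of Tdgf1 there (log2 2.77, adjusted p = 0.0257) was lost without SAG GFP+ replicate 1 (log2 1.396, adjusted p = 0.112). It was also lost without RA GFP+ replicate 1 or 2. The lower call of Klf4 had log2 -0.887 (adjusted p = 0.0194). That call was lost without RA GFP+ replicate 1 or 3 or SAG GFP+ replicate 2 or 3 (highest adjusted p 0.0716). Zfp42 averaged 0.286 ± 0.157 CPM in SAG GFP+, 9.46 ± 2.37 CPM in RA GFP+ and 119.9 ± 24.9 CPM in RA GFP- cells, and Esrrb averaged 2.05 ± 0.364, 11.7 ± 2.87 and 134.6 ± 22.1 CPM in those groups, each called in both comparisons. The summed level of the pluripotency list was 60.5 to 224.7 CPM in SAG GFP+, 35.1 to 47.4 CPM in RA GFP+ and 587.9 to 959.6 CPM in RA GFP- libraries, and its part in the difference between bright and dim cells was not tested.

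**Figure D5:**
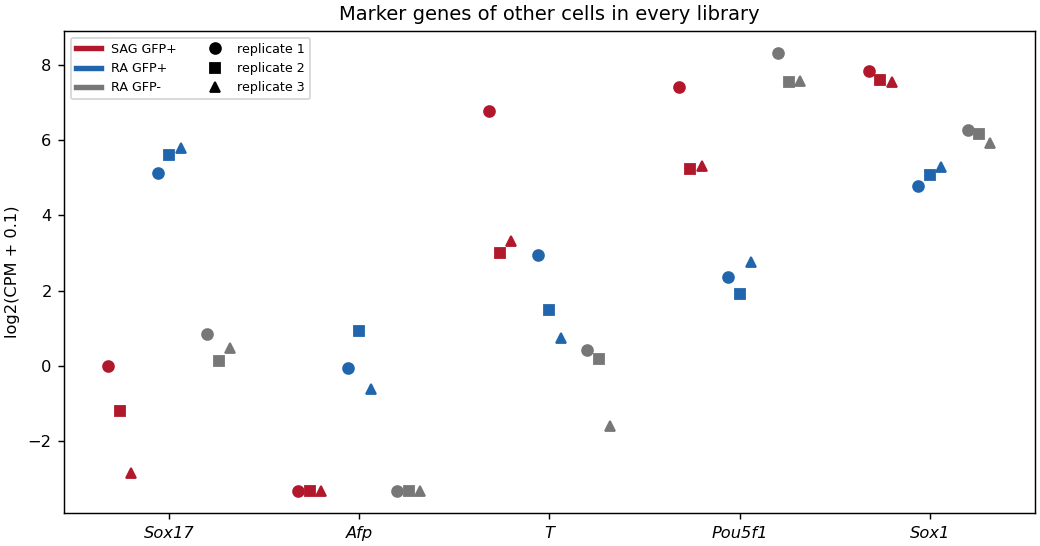
log2(CPM + 0.1) of Sox17 and Afp (endoderm), T (notochord and primitive streak), Pou5f1 (pluripotency) and Sox1 (neural progenitors) in the 9 libraries, with SAG GFP+ in red at the left, RA GFP+ in blue and RA GFP- in grey at the right of each gene; symbols give the replicate number. Sox17 and Afp are highest in RA GFP+ libraries, T and Pou5f1 are highest among the SAG GFP+ libraries in replicate 1, and Sox1 is highest in SAG GFP+ libraries.

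For each member, the 3 genes with the most similar pattern were taken from 13912 genes by Pearson's r of log2 CPM over the 9 libraries; the points share 3 groups, so these r describe mainly the group means. Foxa2 was most like Sema3f (r = 0.996), Podxl (0.990) and Fstl1 (0.988). Sema3f, a semaphorin, had 51.2 to 62.4 CPM in SAG GFP+, 45.2 to 54.8 CPM in RA GFP+ and 12.4 to 16.0 CPM in RA GFP- libraries. Foxa1 was most like Ptprk (0.991), Tgfa (0.987) and Rhou (0.984). Shh was most like Kdelc2 (0.990), Itgb1 (0.984) and Ednra (0.979). The endothelin receptor gene Ednra had 13.9 to 17.9 CPM in SAG GFP+, 27.3 to 36.8 CPM in RA GFP+ and 3.27 to 3.57 CPM in RA GFP- libraries. Spon1 was most like Igfbp5 (0.988), Trib2 (0.982) and Plcb1 (0.980), and Igfbp5, a secreted IGF-binding protein, had 1913 to 3465 CPM in SAG GFP+, 1112 to 1482 CPM in RA GFP+ and 56.6 to 78.0 CPM in RA GFP- libraries. Lmx1b was most like Vil1 (0.992), Gm2420 (0.983) and Baiap3 (0.981), which were all lowest in SAG GFP+ libraries, with Baiap3 at 0.815 to 1.61 CPM there, 4.19 to 8.07 CPM in RA GFP+ and 4.50 to 5.79 CPM in RA GFP- libraries. Foxj1 had the weakest likeness, with Prodh (0.951), Gm49336 (0.942) and Hnrnpa3 (0.937).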

How the data were processed

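Per the labels' protocols, directional poly(A) libraries were made from RNA of 9 sorted samples. The deposited table gives whole-number read counts per Ensembl gene. Per the submitters' processing notes, which give no order or settings, the tools were featureCounts (Subread 1.6.2), Bowtie2 2.3.4.1 and Trim Galore 0.5.0, with GRCm38; no source used here gives the strand setting. A short-read aligner without splicing, where used on a genome, would lose reads across exon junctions.

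From the counts, libraries were scaled by TMM (edgeR 4.0.16, R 4.3.3), filterByExpr (minimum count 10) left 16772 of 54532 genes, and all 9 libraries were fitted together by group with edgeR's quasi-likelihood test. P-values were adjusted by Benjamini-Hochberg over all tested genes, and 0.05 was the threshold. SE was computed as the log2 fold change over the square root of F. CPM were averaged as mean ± SD over 3 replicates. Ratios to Foxa2 used 0.5 added counts and exact permutation tests. Intervals and floors (3 counts over a group) cover counting error only. Totals of 25281871 to 29763765 counts make 1 CPM about 25 to 30 reads. The fit was tested on simulated data.

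Same-numbered RA GFP+ and RA GFP- libraries deviated together (r = 0.273, 0.307 and 0.347 for the deviations from group means), so the paired fit on the 6 RA libraries is given beside calls it changes. Alternatives were DESeq2 1.42.0, library totals, other count minimums, fits on the 2 groups alone, replicate blocks and leaving out each library. Named genes are the 6 members, per list the 2 called genes with the smallest p in each of the first 2 comparisons plus genes that make up a count, and the 3 genes most like each member with at least 1 CPM. The members and the 12 lists were chosen with earlier results of these data known. Promoter sequences are from RefSeq. Some genes of these lists are not reported here, and the counts, medians and sums are over the other genes.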

Additional observations from a re-analysis of the deposited data

How the results depend on the processing

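Over 17 alternatives, 101 of 102 log2 fold changes of the members for RA GFP+ over RA GFP- and 101 of 102 for SAG GFP+ over RA GFP- kept their direction and call, as did 88 of 102 for SAG GFP+ over RA GFP+. Lmx1b in RA medium became called with a replicate block on the 6 RA libraries (0.377) and not with one on all 9 (0.382, adjusted p = 0.153); these blocks gave 5240 and 3811 genes called there, against 2838 unpaired, and leaving out 1 library gave 1783 (without RA GFP+ replicate 2) to 3368. Foxa2 in SAG GFP+ over RA GFP+ lost its call with library totals (0.616), and leaving out 1 library gave 0.421 to 0.779. Spon1 in that comparison became called in DESeq2 (0.868), with no low-count filter (0.870) and with a replicate block (0.844 on 6 libraries and 0.819 on 9), and leaving out 1 library gave 0.67 to 1.17. There same-numbered libraries shared little deviation (r = 0.111, -0.082 and 0.182), and whether the numbers pair the samples cannot be told from these values. Leaving out 1 library gave Foxj1 -0.134 to 0.585 in SAG GFP+ over RA GFP+ and -0.68 to 0.04 in SAG GFP+ over RA GFP-, and gave the log2 ratio of Spon1 to Foxa2 -0.139 to 0.789, so their signs turned. Where not stated, the cause was not tested. The 12 lists' counts of calls were taken under 11 of the alternatives, and 15 of 132 such counts in RA medium and 24 of 132 between media moved by over 1.5 times; smaller changes are not counted. Foxj1 and dim-cell Shh are limited by low counts.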
